A study of Mus musculus with 6 samples.

Results

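The genes described here are 10 markers of astrocytes, Gfap, Aldh1l1, S100b, Slc1a3, Slc1a2, Glul, Aldoc, Aqp4, Gja1 and Sparcl1, read by symbol from a table of 24503 genes measured by RNA-seq. All 10 were in the table, and all 10 passed the filter on low counts that left 13683 genes for testing. The libraries came from primary mouse neural stem cells taken from the cortex of embryos at E13.5, enriched as neurospheres and grown on laminin with FGF and EGF. Both groups carried the floxed Phf2 alleles (Phf2flox/flox); the WT group had no Cre (n = 3 libraries), and the KO group also carried the Nestin-Cre transgene B6.Cg-Tg(Nes-cre)1Kln/J (n = 3), in which Cre is driven by the promoter of Nestin, a gene of neural progenitors. Phf2 encodes a histone demethylase, and the comparison asks which transcripts differ when it is deleted in these cells. Only the KO group carried Cre, so loss of Phf2 and presence of the transgene cannot be told apart. The sources used here do not say whether the libraries came from separate embryos or cultures, so a p-value here reflects no more than the spread among these libraries, which may be technical.

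Astrocytes take up glutamate and potassium, supply neurons with glutamine, metabolise glucose and contact blood vessels with endfeet rich in water channels. In the cortex they arise from radial glia after neurons have formed, and radial glia and cultured neural stem cells already share part of the astrocyte programme, above all the glutamate transporter Slc1a3 and the enzymes Aldoc and Glul. Gfap, by contrast, is best known as a late gene of the lineage, switched on by cytokines of the LIF and CNTF family through the transcription factor STAT3. A marker named here is therefore not proof of an astrocyte: the cells were proliferating stem cell cultures, and in bulk RNA fewer cells of a type and less RNA per cell cannot be told apart.

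Depth was high and similar, with 33413444 to 46890314 counts per library, and levels are given as CPM, counts scaled to library size with TMM factors. Phf2 itself was lower in the KO libraries, at 56.3, 48.1 and 48.8 CPM in KO 1, 2 and 3 against 109, 90.4 and 77.8 CPM in WT 1, 2 and 3; the sources used here do not name the deleted exons, so this whole-gene level does not measure intact transcript. Libraries with replicate number 1 stood apart from numbers 2 and 3 in both groups. Same-numbered libraries deviated together (r = 0.854, 0.604 and 0.580 across genes for numbers 1, 2 and 3). The crossed pairs WT 2 with KO 3 and WT 3 with KO 2 gave about as much, 0.633 and 0.578. These values therefore set number 1 apart but do not pair numbers 2 and 3 across the groups. For this reason each result is given without and with the replicate number as a block. The pair KO 2 and KO 3 differed least of all pairs within a group, with a median chi-square per gene of 1.02 against 5.25 for WT 2 with WT 3 and 0.455 from counting alone. Markers of stem cells and radial glia summed to 11962 to 12578 CPM in every library. Among microglial and macrophage markers 6 of 12 had no count in any library, Aif1, C1qa and Ptprc among them. Endothelial markers summed to at most 3.89 CPM.

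Of the 10 genes, 8 have a promoter sequence used here (RefSeq, build GRCm38.p6, 250 bases before to 50 after an annotated start). Promoters of 3 genes are shown because their transcripts took different courses in the libraries: Gfap was far lower in the libraries numbered 1 and fell in KO, Aldh1l1 had the largest fall in KO, and Slc1a3 was the steadiest of the 10 genes. They lie at chr11:102897151-102897450 (minus strand), chr6:90550543-90550842 (plus strand) and chr15:8710758-8711057 (minus strand). Capitals mark matches, on either strand, to the TATA box (letters TATAAA), the CCAAT box (letters CCAAT), the site bound by STAT factors (letters TTCNNNGAA), the short site of NFI factors (letters TTGGCA), the core of SOX sites (letters ACAAT) and the core of sites for RBPJ, the DNA-binding factor of the Notch pathway (letters TGGGAA). The short NFI site and the CCAAT box can share bases on opposite strands, but no matches overlap in these 3 sequences.
Gfap: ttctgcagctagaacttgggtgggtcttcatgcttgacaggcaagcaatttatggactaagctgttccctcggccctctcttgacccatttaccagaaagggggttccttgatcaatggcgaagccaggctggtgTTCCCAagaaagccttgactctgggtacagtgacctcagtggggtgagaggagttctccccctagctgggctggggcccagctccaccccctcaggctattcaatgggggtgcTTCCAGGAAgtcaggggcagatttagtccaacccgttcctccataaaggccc
Aldh1l1: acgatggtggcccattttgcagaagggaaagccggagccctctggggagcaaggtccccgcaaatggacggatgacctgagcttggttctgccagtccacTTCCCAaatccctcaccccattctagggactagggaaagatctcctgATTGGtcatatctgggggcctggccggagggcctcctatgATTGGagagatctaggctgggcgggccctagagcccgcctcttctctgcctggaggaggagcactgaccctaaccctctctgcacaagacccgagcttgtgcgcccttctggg
Slc1a3: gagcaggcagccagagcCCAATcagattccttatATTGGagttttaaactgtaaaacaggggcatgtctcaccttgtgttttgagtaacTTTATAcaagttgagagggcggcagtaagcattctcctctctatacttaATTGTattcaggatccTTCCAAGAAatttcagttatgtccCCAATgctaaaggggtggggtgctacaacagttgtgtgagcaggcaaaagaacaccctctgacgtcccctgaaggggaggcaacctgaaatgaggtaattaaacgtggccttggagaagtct
The Gfap window held 1 match to the STAT site, TTCCAGGAA, and 1 to the RBPJ core. The Slc1a3 window also held 1 STAT match, TTCCAAGAA, with 3 CCAAT boxes, 1 TATA box and 1 SOX core. The Aldh1l1 window held 2 CCAAT boxes and 1 RBPJ core. Over all 32851 promoters of this length, 8.3% held the STAT site, 37.4% the CCAAT box, 25.6% the RBPJ core, 13.6% the TATA box, 31% the SOX core and 14.1% the short NFI site. These matches describe the letters and not binding. The Aldh1l1 and Gfap windows lie inside the genes as GENCODE vM21 draws them (chromosome 6, 90486427 to 90600203, and chromosome 11, 102887336 to 102900912), both with annotated sequence further upstream.

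In the blocked fit Aldh1l1 and Gfap were lower in the KO cells and Sparcl1 was higher. The other 7 genes differed less. With the replicate number as a block, 3 of the 10 genes rose (Sparcl1, Glul and Aldoc), 4 fell (Aldh1l1, Gfap, Slc1a2 and Gja1) and 3 did not pass (Slc1a3, S100b and Aqp4) at a p under 0.05 from the quasi-likelihood test of edgeR, adjusted by Benjamini-Hochberg over all genes. The same fit called 9.79% of all genes, 3.33% higher and 6.46% lower. Without the block 0 of the 10 genes were called, where edgeR called 0.0585% of all genes (0.0292% higher and 0.0292% lower). In that fit 2 of the 10, Aldh1l1 and Slc1a2, had an unadjusted p under 0.05, against 795 of all 13683 genes. DESeq2 without the block called Aldh1l1 alone, against 1.91% of all genes (0.468% higher and 1.45% lower). DESeq2 with the block called 3 of the 10 higher and 2 lower, against 9.27% of all genes (3.8% higher and 5.47% lower). The median log2 fold change of the 10 genes was −0.18 in both edgeR fits, against 0.01 over all genes, with members called on both sides. These genes were chosen with earlier results known, and the counts describe them only. The verbs rose and fell are used here of genes called in the blocked fit.

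**Figure D1:**
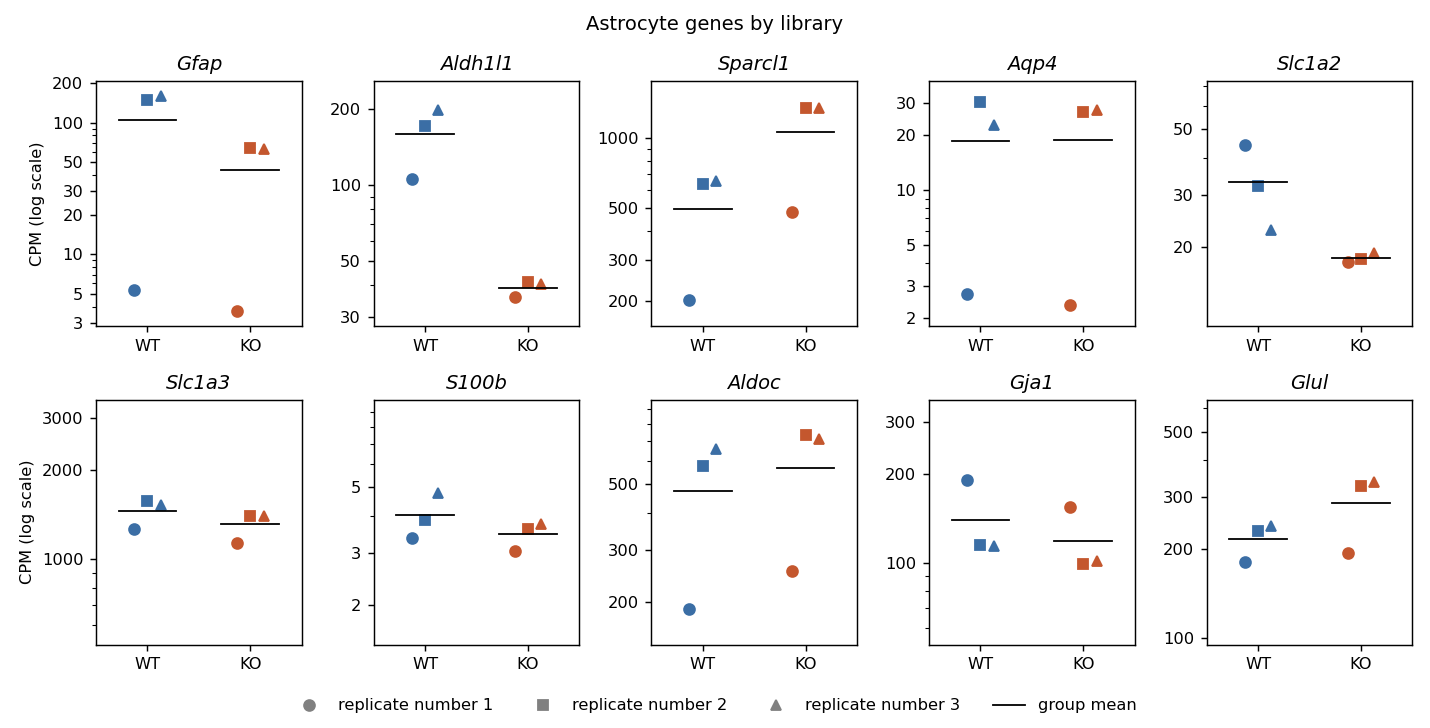
TMM-scaled CPM (log scale, one scale per panel) of each gene in the 3 WT (blue) and 3 KO (orange) libraries, with the symbol giving the replicate number and the line the group mean. Gfap, Aqp4, Sparcl1 and Aldoc are lowest in number 1 of both groups, and Aldh1l1 and Slc1a2 are the genes whose WT and KO points do not overlap.

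Gfap encodes the intermediate filament protein of mature and reactive astrocytes (chromosome 11, 102887336 to 102900912, minus strand, GRCm38). It was measured at 5.33, 149 and 159 CPM in WT 1, 2 and 3 and at 3.70, 64.0 and 63.3 CPM in KO 1, 2 and 3. The groups overlap because both libraries numbered 1 were far below the other 4, but within each number the KO library was the lower one. The log2 fold change was −1.12 ± 0.126 (SE) with the block (edgeR, adjusted p = 0.000798). The unblocked estimate was −1.26 ± 1.32 (SE; edgeR, adjusted p = 0.999). The ratio of KO to WT was 0.694 in number 1, which rests on 245 and 152 counts, and 0.428 and 0.398 in numbers 2 and 3.

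Aldh1l1 encodes a folate enzyme, 10-formyltetrahydrofolate dehydrogenase, and is a widely used marker of the whole astrocyte lineage. It was measured at 106, 171 and 199 CPM in WT 1, 2 and 3 and at 35.8, 41.0 and 40.6 CPM in KO 1, 2 and 3. The KO values all lay far below the WT values. The KO libraries were close together (coefficient of variation 7.38%), while the WT libraries spread more (29.8%). The log2 fold change was −1.97 ± 0.123 (SE) with the block (adjusted p = 4.75e-05, edgeR) and −2.02 ± 0.238 (SE) without it (adjusted p = 0.0782, edgeR), the lowest adjusted p of the 10 genes without a block. The KO to WT ratio was 0.336, 0.240 and 0.204 in numbers 1, 2 and 3. Without WT 1 the unblocked fit called it, with a log2 fold change of −2.23 ± 0.121 (SE) and adjusted p = 0.0246 (edgeR). In the annotation 499 exonic bases of Aldh1l1 are shared with the antisense gene Gm15756 and 105 with Gm45901, neither of them a row of the count table; the sources used here do not state a strand setting, and reads of these genes cannot be told apart from those of Aldh1l1.

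S100b encodes a calcium-binding protein found in astrocytes and in some oligodendrocyte lineage cells (chromosome 10, 76253853 to 76261159). It stayed low, at 3.37, 3.89 and 4.79 CPM in WT 1, 2 and 3 and 3.04, 3.61 and 3.75 CPM in KO 1, 2 and 3. These ranges overlap. The log2 fold change was −0.21 ± 0.141 (SE) with the block and did not pass (adjusted p = 0.425, edgeR).

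The 2 glutamate transporters differed in level; a difference in their response was not tested. Slc1a3, which encodes GLAST, the transporter of radial glia and immature astrocytes (chromosome 15, 8634124 to 8710764, minus strand), had the highest CPM of the 10 genes in WT, with 1267, 1581 and 1525 CPM in WT 1, 2 and 3 and 1132, 1403 and 1402 CPM in KO 1, 2 and 3. The KO library was slightly lower in each number, with a log2 fold change of −0.15 ± 0.0671 (SE) in the blocked fit that did not pass (adjusted p = 0.204, edgeR). Slc1a2, which encodes GLT-1, the main glutamate transporter of mature astrocytes (chromosome 2, 102658659 to 102790784), was at 44.3, 32.2 and 22.8 CPM in WT 1, 2 and 3 and at 17.7, 18.2 and 19.1 CPM in KO 1, 2 and 3. Every KO library was below every WT library, and the KO libraries varied by 3.95% (coefficient of variation) against 32.6% in WT.

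Slc1a2 fell by a log2 fold change of −0.81 ± 0.172 (SE) with the block (adjusted p = 0.0240, edgeR) and was at −0.85 ± 0.243 (SE) without it (adjusted p = 0.489, edgeR). Its KO to WT ratio was 0.400, 0.566 and 0.841 in numbers 1, 2 and 3. Without WT 1 the unblocked log2 fold change was −0.57 ± 0.180 (SE). Without the libraries numbered 1 the blocked log2 fold change was −0.54 ± 0.145 (SE). The call was lost with DESeq2 and the block (adjusted p = 0.0782) and without the low count filter (adjusted p = 0.130, edgeR with the block), and the gene was not called in numbers 2 and 3 by themselves (adjusted p = 0.136, edgeR). An antisense gene, Gm13872, shares 189 exonic bases with Slc1a2.

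Glul encodes glutamine synthetase, which converts the glutamate taken up by astrocytes to glutamine (chromosome 1, 153899944 to 153909723). It was at 181, 231 and 239.9 CPM in WT 1, 2 and 3 and at 195, 327 and 338 CPM in KO 1, 2 and 3. KO 2 and KO 3 were above all WT libraries, while KO 1 lay between WT 1 and WT 2. The gene rose by 0.37 ± 0.0835 (log2, SE) with the block (adjusted p = 0.0213, edgeR), and the unblocked adjusted p was 0.999. The call was lost without the libraries numbered 3 (adjusted p = 0.0885) and with KO 2 and KO 3 summed as 1 library (adjusted p = 0.111), both edgeR with a block.

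Aldoc encodes aldolase C, the glycolytic aldolase of brain (chromosome 11, 78322968 to 78327781). Its levels were 189, 574 and 659 CPM in WT 1, 2 and 3 and 253, 732 and 711 CPM in KO 1, 2 and 3. The groups overlap, and the gap between number 1 and the other numbers is several times the gap between WT and KO. It rose by 0.29 ± 0.0758 (log2, SE) with the block (adjusted p = 0.0380, edgeR). The unblocked estimate was 0.25 ± 0.565 (SE, adjusted p = 0.999, edgeR). The call was lost in 4 of 9 fits that hold the replicate number in the model or as pairs, among them the fit without the libraries numbered 1 (adjusted p = 0.281, edgeR) and upper-quartile scaling (adjusted p = 0.0662, edgeR).

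Aqp4, the water channel of astrocyte endfeet, had nearly the same level in both groups. It was at 2.70, 30.5 and 22.7 CPM in WT 1, 2 and 3 and at 2.34, 26.8 and 27.6 CPM in KO 1, 2 and 3. The log2 fold change with the block was 0.00 ± 0.113 (SE), with adjusted p = 0.990 (edgeR), and its sign changed with the setting. As with Gfap, both libraries numbered 1 were far lower than the others: the mean of numbers 2 and 3 was 9.85 times number 1 in WT and 11.7 times in KO.

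Gja1 encodes connexin 43, the main gap junction protein of astrocytes and radial glia (chromosome 10, 56377330 to 56402513). It ran opposite to Aqp4 over the replicate numbers, with 191, 115 and 114 CPM in WT 1, 2 and 3 and 155, 98.8 and 101 CPM in KO 1, 2 and 3. Within each number the KO library was lower. It fell by a log2 fold change of −0.23 ± 0.0618 (SE) with the block (adjusted p = 0.0431, edgeR). The unblocked estimate was −0.24 ± 0.275 (SE, adjusted p = 0.999, edgeR). The call was lost in 4 of the same 9 fits. Adjusted p was 0.0529 with DESeq2 and the block and 0.299 in edgeR with the block and without the libraries numbered 1.

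Sparcl1 encodes hevin, a matricellular protein that astrocytes secrete and that promotes synapse formation (chromosome 5, 104079111 to 104113733, minus strand). It was at 202, 632 and 655 CPM in WT 1, 2 and 3 and at 479, 1352 and 1342 CPM in KO 1, 2 and 3. KO 1 lay below WT 2 and WT 3, so the groups overlap, but within each number the KO library was higher, by 2.37, 2.14 and 2.05 times in numbers 1, 2 and 3. The log2 fold change was 1.13 ± 0.0712 (SE) with the block (adjusted p = 1.68e-05, edgeR) and 1.09 ± 0.561 (SE) without it (adjusted p = 0.999, edgeR). By the blocked p it ranked 18 among 13683 genes, Aldh1l1 ranked 37 and Gfap 184.

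**Figure D2:**
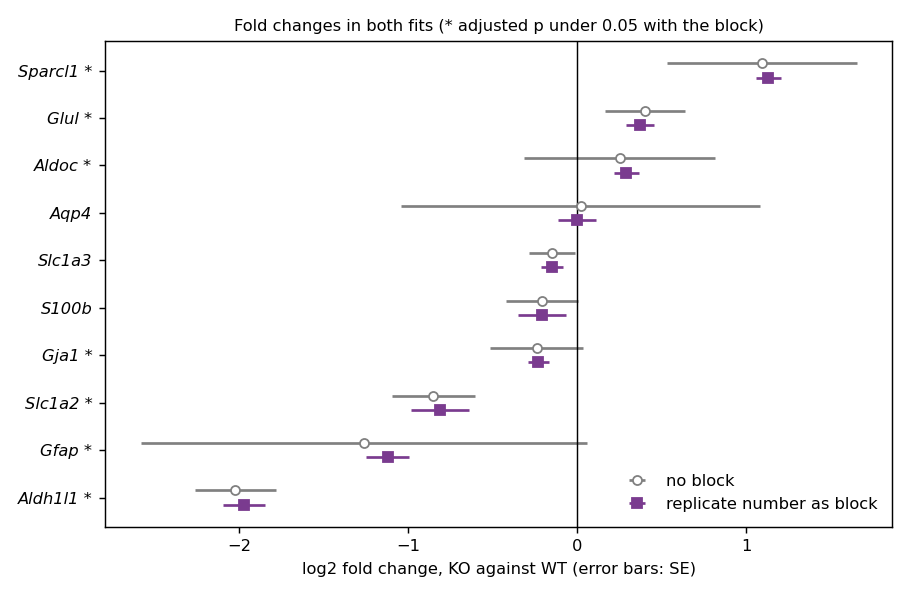
Log2 fold change of KO against WT for the 10 genes, with bars of 1 SE, in edgeR's fit without a block (open circles) and with the replicate number as a block (squares). The estimates are close in both fits, while the SE of Gfap drops from 1.32 to 0.126 and that of Sparcl1 from 0.561 to 0.0712 with the block.

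Gfap, Aldh1l1 and Sparcl1 were called in all 9 fits that hold the replicate number in the model or as pairs, and with numbers 2 and 3 alone without a block, in each case in the direction given above. Over the 9 fits the log2 fold change ran from −1.28 to −1.01 for Gfap, from −2.17 to −1.82 for Aldh1l1 and from 1.07 to 1.17 for Sparcl1. Slc1a2 and Glul were called in 7 of the 9, and Aldoc and Gja1 in 5. Slc1a3, S100b and Aqp4 were called in none of the 9. After summing KO 2 and KO 3 as 1 library, with number 1 as the block, edgeR called 1 of the 10 genes higher and 3 lower, against 1.13% and 3.8% of all genes (4.94% in all). In the libraries numbered 2 and 3 by themselves it called 2 higher (Sparcl1 and Glul) and 2 lower (Gfap and Aldh1l1), against 1.82% and 3.57% (5.4% in all). Blocking only on number 1 or not, it called 3 higher and 4 lower, against 3.73% and 6.83% (10.6% in all).

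**Figure D3:**
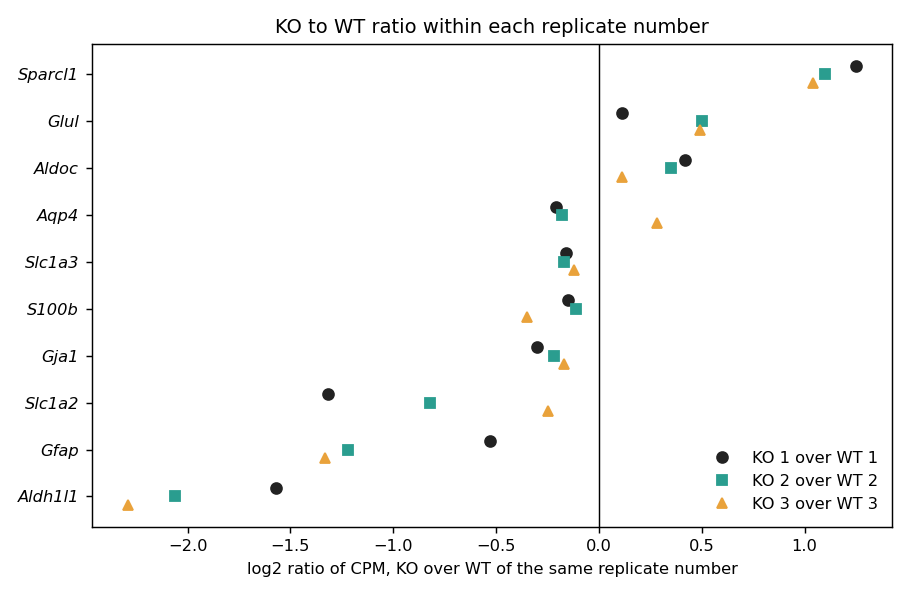
Log2 ratio of CPM between the KO and the WT library of the same replicate number, for numbers 1, 2 and 3. All 3 ratios are above 0 for Sparcl1, Glul and Aldoc and below 0 for 6 genes, while those of Aqp4 fall on both sides; for Slc1a2 they run from −1.32 to −0.25.

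Without regard to number, CPM of KO and WT did not overlap for 2 of the 10 genes, Aldh1l1 and Slc1a2, both lower in KO. Over all tested genes 11.2% did not overlap, 6.71% with all KO below all WT and 4.49% with all KO above. Ratios within the numbers all had the same sign for 9 of the 10 genes, with Aqp4 the exception, and for 46.2% of all tested genes.

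Replicate number 1 was over 2-fold lower than the others in both groups for 4 of the 10 genes, Gfap, Aqp4, Aldoc and Sparcl1; 4.27% of all tested genes met that condition. None of the 10 was over 2-fold higher in number 1 in both groups, against 1.48% of all tested genes. Gfap was the extreme case. The mean of numbers 2 and 3 was 29.0 times number 1 in WT and 17.2 times in KO. Ranked over 13683 genes by the log2 ratio of number 1 to the others (CPM plus 0.5), Gfap was number 2 from the bottom in WT and number 3 in KO, and Aqp4 was number 19 and 11. Gja1 went the other way, at 0.74 (log2) above numbers 2 and 3 in WT and 0.64 in KO. Slc1a2 was higher in number 1 in WT (0.69, log2) but not in KO (−0.08). The sources used here do not say what the numbers stand for, and these ratios are descriptions with no test.

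**Figure D4:**
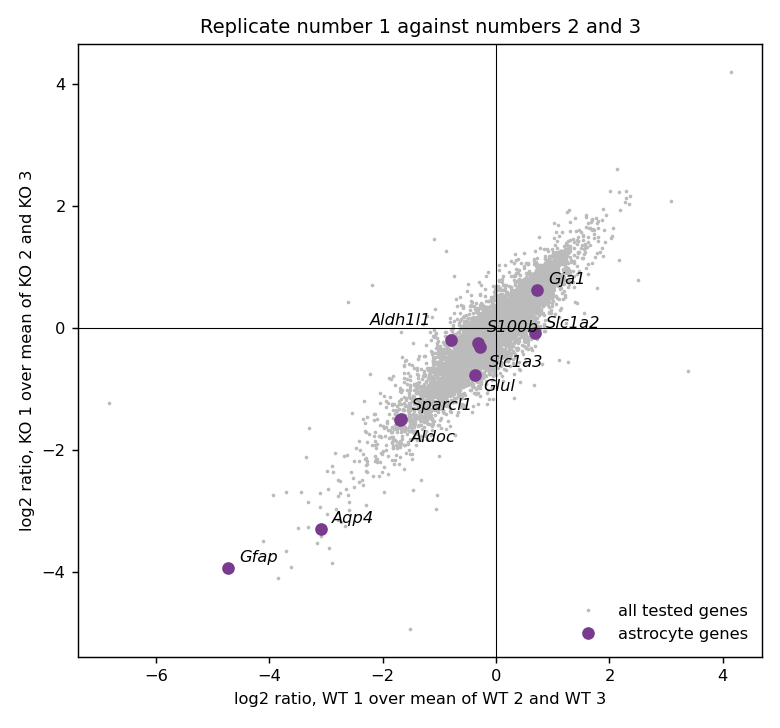
Log2 ratio of CPM (plus 0.5) in replicate number 1 over the mean of numbers 2 and 3, in WT (x axis) and KO (y axis), for all 13683 tested genes (grey) and the 10 astrocyte genes (purple). Gfap and Aqp4 lie at the lower left end of the cloud, Sparcl1 and Aldoc coincide in its lower part, and Gja1 lies in the upper right.

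Levels were set against each other per kilobase of exon (the union of exons in GENCODE vM21). Slc1a3, Sparcl1 and Aldoc came first in WT, at 171 ± 19.6, 169 ± 86.8 and 145 ± 76.7 CPM per kb (SD, n = 3), and their ranges overlapped. Glul followed at 65.4 ± 9.57 CPM per kb, overlapping with Aldoc through the low library WT 1. Aldh1l1 at 35.1 ± 10.5 CPM per kb lay below Glul in every WT library. It overlapped with Gfap (24.8 ± 20.4), and Gfap overlapped with Gja1 (13.7 ± 4.30). Aqp4 (2.99 ± 2.30), S100b (2.71 ± 0.484) and Slc1a2 (2.52 ± 0.823) formed the low end, apart from Gja1 and overlapping with each other. In KO the order changed at the top, with Sparcl1 at 360.1 ± 171, Aldoc at 173 ± 82.9 and Slc1a3 at 154 ± 18.3 CPM per kb, though their ranges overlapped. The mean of Aldh1l1 went from above to below those of Gfap and Gja1, at 8.66 ± 0.639 CPM per kb in KO; its KO range lay within that of Gfap (0.877 to 15.2) and below that of Gja1 (9.63 to 15.1). Thus the transporter of radial glia was far above the transporter of mature astrocytes in both groups.

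**Figure D5:**
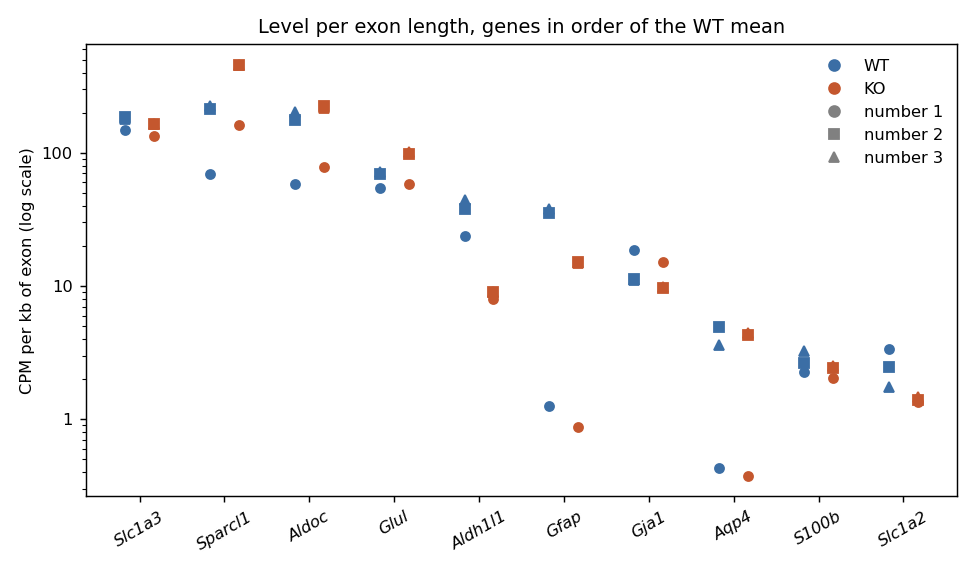
CPM per kilobase of exon (log scale) in each library, WT blue and KO orange, with genes in the order of their WT mean; symbols give the replicate number and coincide where levels are alike. Slc1a3, Sparcl1 and Aldoc have the highest means, and Aqp4, S100b and Slc1a2 have the lowest means.

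The 10 genes did not vary as 1 programme over the 6 libraries. Pearson's r of log2 CPM was 0.96 for Gfap with Aqp4 and with Slc1a3, 0.95 for Sparcl1 with Glul and 0.90 for Sparcl1 with Aldoc. It was 0.46 for Gfap with Aldh1l1, −0.39 for Aldh1l1 with Sparcl1 and −0.99 for Aldoc with Gja1. All of these points share the gap between number 1 and the other numbers, and the values are descriptions over n = 6 libraries. Among 9306 other genes with at least 10 CPM, those most like Gfap were Tmem189, Pgpep1, Inf2, Golga2 and Slc6a8, each with r = 0.999. Those most like Aldh1l1 were Cdkn2a (0.994), Gsta4 (0.993), Cx3cl1 (0.992), Cpq (0.991) and Acsl6 (0.988). Among those most like Sparcl1 were Gsx2 (0.998), Cntfr (0.998), Hid1 (0.996) and Casp9 (0.992). No other astrocyte gene of the 10 was among them.

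Further genes enriched in astrocytes went 1 way where they passed. Of 32 tested, 11 fell and 0 rose with the block, where 6.46% of all genes were called lower and 3.33% higher. In the libraries numbered 2 and 3 by themselves 8 were called lower, against 3.57% of all genes. After summing KO 2 and KO 3 the count was also 8, against 3.8% of all genes, and 0 passed without a block. Genes missed narrowly on both sides, such as Chrdl1 (0.23 ± 0.0682, adjusted p = 0.0604) and Slc4a4 (−0.31 ± 0.0911, adjusted p = 0.06, both edgeR with the block). The median log2 fold change of the list was −0.21 with the block, against 0.01 over all genes. Htra1, a secreted serine protease, went from 12.3 ± 6.61 to 5.01 ± 1.90 CPM (SD, n = 3), a log2 fold change of −1.25 ± 0.121 (SE). Clu, which encodes the chaperone clusterin, fell by −0.76 ± 0.0839 and Pla2g7 by −0.88 ± 0.126 (log2, SE). Against this list, the rises of Sparcl1, Glul and Aldoc went the other way.

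Of 15 genes expressed by reactive astrocytes, 6 fell and 1 rose with the block, against 6.46% and 3.33% of all genes. The gene that rose was Cp (ceruloplasmin, 0.62 ± 0.104, log2, SE), named after its value was seen. After summing KO 2 and KO 3 the calls were 4 lower and 1 higher, against 3.8% and 1.13% of all genes. Without a block 0 passed. Serpina3n, a protease inhibitor and reactive marker, was at 1.57, 4.07 and 4.05 CPM in WT 1, 2 and 3 and at 0.316, 0.354 and 0.505 CPM in KO 1, 2 and 3, a log2 fold change of −2.99 ± 0.262 (SE) in the blocked fit. Emp1 and Amigo2 fell by −0.54 ± 0.0824 and −2.85 ± 0.458 (log2, SE), and Amigo2 was at most at 1.02 CPM in any library. The other intermediate filament genes gave little: of 10 tested, Gfap and the neurofilament gene Nefm (−0.66 ± 0.184) fell and none rose. Nefm, at adjusted p = 0.0492 in edgeR with the block, lost its call after summing KO 2 and KO 3 (adjusted p = 0.113).

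In the pathway known to switch on Gfap, genes were called in both directions. Of 18 genes of LIF, CNTF and JAK-STAT signalling, 3 rose and 2 fell with the block, and 0 passed without it. Over all genes the block gave 3.33% higher and 6.46% lower, and the list was not tested against these shares. The receptor genes Cntfr and Lifr rose by 0.36 ± 0.0666 and 0.52 ± 0.101, and the ligand gene Clcf1 fell by −0.72 ± 0.129 (log2, SE). The receptor gene Osmr fell (−0.58 ± 0.137) and Socs3 rose (0.57 ± 0.121, log2, SE), both named after their values were seen. Lifr was at 68.8, 70.7 and 54.0 CPM in WT 1, 2 and 3 and at 87.4, 90.2 and 99.2 CPM in KO 1, 2 and 3, with no overlap. The summed KO 2 and KO 3 gave 1 gene of this list higher and 1 lower, against 1.13% and 3.8% of all genes. Lifr lost its call there (edgeR, adjusted p = 0.0601). Clcf1, like Gfap, was far lower in number 1: WT 1 had 1.80 CPM and KO 1 had 1.07 CPM, against 6.29 to 11.4 CPM in the other libraries. Of 22 gliogenic transcription factors, beside the same shares of all genes, 2 rose and 4 fell with the block (1 and 3 after summing KO 2 and KO 3). They were led by Hopx (−1.10 ± 0.0936), Lhx2 (−0.64 ± 0.0822) and Nr2f1 (0.59 ± 0.0842). Stat3, Nfia and Sox9, named for their known roles in the lineage and chosen after their values were seen, did not pass, with blocked log2 fold changes of 0.07 ± 0.0623, 0.03 ± 0.0671 and 0.18 ± 0.0637 (SE).

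Beside the lists that follow, the block called 3.33% of all genes higher and 6.46% lower. After summing KO 2 and KO 3 these shares were 1.13% and 3.8%, and no list was tested against them. Among 19 folate one-carbon enzymes Aldh1l1 was the only one called with the block. Its mitochondrial relative Aldh1l2 had 0.11 ± 0.0819 (log2, SE). In the SPARC family 2 of 7 rose, Sparcl1 and Smoc1 (0.50 ± 0.0682), and 4 fell, led by Spock2 (−0.71 ± 0.0945), and Sparc itself fell by −0.39 ± 0.0684 (log2, SE), the opposite direction to Sparcl1. The summed KO 2 and KO 3 gave 2 higher and 3 lower. Among 7 connexins Gjc3 (0.98 ± 0.102) and Gjc1 (1.21 ± 0.127) rose while Gja1 fell. In the glutamate and glutamine list 3 of 15 rose, with the amino acid transporter Slc38a1 (0.32 ± 0.0689) and Glul at the lowest p, and Slc1a2 alone fell; after summing KO 2 and KO 3 the calls were 0 higher and 1 lower. Of 13 genes of aquaporins and the endfoot complex, the potassium channel gene Kcnj10 fell (−0.44 ± 0.0667) and the syntrophin gene Sntb2 rose (0.83 ± 0.134), though neither was called in numbers 2 and 3 by themselves. Of 2 tested aldolases Aldoc alone passed, and of 9 tested S100 genes 1 rose and 5 fell, led by S100a6 (−0.88 ± 0.119), S100a1 (−0.64 ± 0.106) and S100a11 (−0.37 ± 0.0697; all log2, SE). After summing KO 2 and KO 3 the S100 calls were 0 higher and 2 lower, S100a6 and S100a1, and Aldoc was not called. Without a block 0 members of these lists passed.

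Markers of other cells were compared beside these results. Over all genes the block called 3.33% higher and 6.46% lower. The shares were 1.13% and 3.8% after summing KO 2 and KO 3, and 1.82% and 3.57% in numbers 2 and 3 by themselves. Neuron markers summed to 813 to 1123 CPM in WT and 870.3 to 1097 CPM in KO. Most of this was Map2 (mean 558 CPM in WT and 626 in KO) and Gap43 (267 and 246). Tubb3 (7.15 and 6.59) and Dcx (6.87 and 6.42) were low. Of 11 tested 1 rose (Gad1, 0.93 ± 0.153) and 2 fell (Syt1, −0.93 ± 0.0797, and Stmn2, −1.38 ± 0.363) with the block. Stmn2 lost its call after summing KO 2 and KO 3 (edgeR, adjusted p = 0.0911), and Gad1 in numbers 2 and 3 by themselves (adjusted p = 0.0522). Oligodendrocyte lineage markers summed to 3638 to 4450.1 CPM in WT and 3628 to 3917 CPM in KO. Most of this was Olig1 (mean 2391 CPM in WT and 2042 in KO) and Olig2 (1198 and 1118). Mog, Mag and Mobp had at most 12 counts in any library. Of 10 tested 2 rose (Bcas1 and Pdgfra) and 2 fell (Nkx2-2 and Sox10, the latter named after its value was seen). Bcas1 and Nkx2-2 also passed without a block. Pericyte and fibroblast markers summed to 138 to 211 CPM in WT and 174 to 190.2 CPM in KO, and of 7 tested Twist1 and Foxc1 rose and Col1a2 fell; Twist1 was at most at 0.754 CPM and Col1a2 at most at 0.996 CPM. Ependymal and choroid plexus markers summed to 25.2 to 59.1 CPM in WT and 28 to 67.9 CPM in KO. Most of this was Foxj1 (mean 39 CPM in WT and 30.2 in KO) and Otx2 (6.28 and 23.6). Of the 8 markers 3 were tested and 2 had no count in any library, and Ttr had at most 3 counts. With the block Otx2 was higher (1.90 ± 0.103) and Foxj1 lower (−0.37 ± 0.0773) in KO, calls that describe single genes and not a cell type. Foxj1 lost its call after summing KO 2 and KO 3 (edgeR, adjusted p = 0.0772). Of 14 stem cell and radial glia markers 2 rose and 2 fell with the block, led by Hopx, Prom1 (−1.35 ± 0.130) and Lifr. After summing KO 2 and KO 3 the calls in this list were 0 higher and 2 lower, and the same counts held in numbers 2 and 3 by themselves. The part of other cell types in the differences of the 10 astrocyte genes was not tested.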

How the data were processed

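RNA was sequenced from 6 libraries, 3 WT and 3 KO. The table the authors deposited holds raw counts, whole numbers for each gene symbol. FastQC, cutadapt, Trim Galore, Bowtie2 and RSEM are named with mm10, per the submitters' processing notes. Tool versions, gene annotation, strandedness and the rounding of RSEM's estimates were not found in those notes or the labels. Group and replicate number came from the sample titles.

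Counts entered edgeR 4.0.16 (R 4.3.3) as deposited: filterByExpr by group, TMM scaling, robust quasi-likelihood fit of all 6 libraries, two-sided test, Benjamini-Hochberg adjustment over 13683 genes, called under 0.05. SE was taken as the ratio of the log2 fold change to the root of its F statistic. The fit without a block was the main one. The replicate number was treated as pairing the libraries because the deviations of each same-numbered pair from their group means correlated over 0.1 (0.854, 0.604 and 0.580). The labels do not state this pairing. The crossed pairs WT 2 with KO 3 and WT 3 with KO 2 gave 0.633 and 0.578, so this rule could not tell numbers 2 and 3 apart. DESeq2 1.42.0, other scalings, no filter, left-out libraries and KO 2 and KO 3 summed were alternatives. Scripts were tested on simulated data.

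Positions and exon lengths came from GENCODE vM21 (GRCm38, the assembly mm10 names), in which 95.2% of symbols and all 10 members matched 1 gene. Promoters came from RefSeq GRCm38.p6. All 10 genes were reported. Of each further list, up to 3 called genes by lowest blocked p were named, or the 2 with the highest CPM where none was called; the 5 genes most like Gfap, Aldh1l1 and Sparcl1 were named by r. Some genes that these rules select are not reported here. Members and lists were chosen with earlier results of these data known.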

Additional observations from a re-analysis of the deposited data

How the results depend on the processing

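Without a block edgeR called 8 genes, 0 of them among the 10 astrocyte genes. With the replicate block it called 1340 genes and 7 of the 10, and with number 1 against numbers 2 and 3 as the block 1445 and 7. DESeq2 called 262 genes and 1 of the 10 without the block, and 1268 and 5 with it. Upper-quartile scaling with the replicate block gave 1310 and 6, and no filter with the replicate block 1661 and 6. Numbers 2 and 3 alone gave 743 and 4. With KO 2 and KO 3 summed 0 genes were called in edgeR without a block (495 at an unadjusted p under 0.05) and 688, with 4 of the 10, with number 1 as the block. RLE scaling, upper-quartile scaling and no filter, all unblocked, called 8, 6 and 8 genes, all of them among the 8, and 0 of the 10. Leaving out 1 library of the 6 without a block gave 0 to 21 genes and 0 to 1 of the 10, with 21 and Aldh1l1 without WT 1. Leaving out both libraries of a number with the replicate block gave 1037 to 1456 genes (1248 without number 2) and 5 to 6 of the 10.

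The sign changed for 3 of the 10 genes, in fits where none of them passed. Aqp4 (0.02 unblocked, log2) was at 0.00 with the replicate block in edgeR, in DESeq2 and without the filter, at −0.01 with number 1 as the block and with upper-quartile scaling, at −0.04 with upper-quartile scaling and the replicate block, and at −0.03 and −0.33 with KO 2 and KO 3 summed with and without a block. It ran from −0.48 (without WT 1) to 0.58 over the left-out libraries, with −0.31 without KO 2, −0.35 without KO 3 and −0.19 without number 3 in the blocked fit. Over the left-out libraries without a block Aldoc ran from −0.12 to 0.61 and Gja1 from −0.49 to 0.06 (log2), with the changed sign without WT 1 in both cases. Gfap, Aldh1l1, Sparcl1, Slc1a2, Slc1a3, S100b and Glul kept their direction in every fit run. Counts in the further gene lists with KO 2 and KO 3 summed and with numbers 2 and 3 alone were chosen after seeing the data. At 33413444 counts or more per library, depth limits S100b and the libraries numbered 1 for Gfap and Aqp4, with 96 to 245 counts each.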
